A study of Mus musculus with 15 samples.

Results

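The 8 integrin beta subunit genes, ITGB1 to ITGB8, were taken by symbol from a raw count table of 25382 genes and followed across all 15 libraries. All 8 were among the 15190 genes left after a filter on low counts, so all 8 were tested. The libraries came from primary tumours formed in mice (strain given as Nod/Skid) by MDA-MB-231, a triple-negative breast cancer line of human origin, here with GFP and luciferase. The cells differed in adhesion class, set with fluid shear, and the tumours were taken out, dissociated and sequenced in bulk. The shear was 10 dyn per square centimetre for the weakly adherent cells (6 libraries) and 50 dyn per square centimetre for the strongly adherent cells (4 libraries), while the cells called unsorted (5 libraries) were not sheared. All 3 groups share the cell line, its reporters and the host strain, and adhesion class was a property of the cells that formed the tumours, not one measured in the tumours. Each title also carries a number (4, 5, 6, 7-8, 9 or 10), which the labels do not explain and which is used here with the group to name a library. The labels give no age and do not tie libraries to animals, so a p-value here reflects the spread from library to library, which may be technical.

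Total counts per library ran from 30372619 to 45434799. Among markers of the cell line, VIM was present in every library (1143 to 7399 CPM, counts scaled to library size), CDKN2A had no count in any library, and ESR1, the estrogen receptor gene, stayed at or below 0.234 CPM. MDA-MB-231 is known as a mesenchymal-like line with little E-cadherin, and the data go against little E-cadherin in most libraries. CDH1, the E-cadherin gene, stood at 53.1 to 549 CPM in 12 libraries and between 0.267 and 5.56 CPM in the 3 with title number 6. The summed level of 8 epithelial marker genes was 845 to 1119 CPM in those 3 libraries and 1702 to 4698 CPM in the other 12. The 5 skeletal muscle genes summed to 1630 CPM in strongly adherent library 5 and to 85.0, 233 and 529 CPM in weakly adherent, strongly adherent and unsorted library 6, against 1.05 to 6.14 CPM in the other 11. Values that moved most without these libraries are given with and without them.

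Integrins are receptors made of an alpha and a beta subunit that hold cells to the extracellular matrix or to other cells and connect that contact to the cytoskeleton. The beta subunit carries the cytoplasmic tail to which talin and kindlin bind to switch the receptor on, and both chains together decide which ligand is held. ITGB1 pairs with many alpha subunits and serves adhesion to collagen, laminin and fibronectin. ITGB4 pairs with ITGA6 and anchors epithelial cells to laminin through hemidesmosomes. ITGB3, ITGB5, ITGB6 and ITGB8 pair with ITGAV and bind ligands such as vitronectin and the latent form of TGF-beta, while ITGB2 and ITGB7 are the beta chains of leukocyte integrins.

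To rank the genes, CPM was divided by the length in kilobases of the coding sequence of each mouse orthologue, because human lengths were not used here. Untranslated regions did not enter that length, so gaps between genes on this scale are approximate. ITGB1 was the highest, with a level of 519 ± 96.4 CPM per kilobase (SD, n = 15). ITGB4 followed at 97.0 ± 18.2 and ITGB5 at 94.0 ± 20.4 CPM per kilobase (SD, n = 15). ITGB8 came next at 21.6 ± 9.85 CPM per kilobase, ahead of ITGB6 at 10.1 ± 6.69 and ITGB3 at 10.0 ± 4.65 (SD, n = 15). ITGB2 stood at 4.81 ± 2.22 and ITGB7 at 0.195 ± 0.165 CPM per kilobase (SD, n = 15). The order was the same by CPM without length and without the libraries titled number 6.

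Some neighbours in that order were well apart and others were not. ITGB1 exceeded ITGB4 per kilobase in 15 of 15 libraries, by 5.35 times on the means, and the ranges of both genes did not overlap. ITGB5 exceeded ITGB8 in 15 of 15 libraries by 4.35 times, and ITGB2 exceeded ITGB7 in 15 of 15 by 24.7 times, again without overlap of the ranges. ITGB8 lay above ITGB6 in 15 of 15 libraries, although their ranges over libraries overlapped. Per kilobase, ITGB4 exceeded ITGB5 in only 8 of 15 libraries and ITGB6 exceeded ITGB3 in 7 of 15. On that scale neither pair differed beyond its spread. In CPM without length, ITGB4 ran from 366.9 to 726.8 and ITGB5 from 140.6 to 296.6, so these ranges did not overlap. The closeness of ITGB4 and ITGB5 thus rested on the coding lengths used, 5406 bases for ITGB4 and 2397 for ITGB5. ITGB3 lay above ITGB2 in 12 of 15 libraries, with strongly adherent libraries 4 and 5 and unsorted library 7-8 as the exceptions. On CPM, ITGB1 made up a median of 59.1% of the counts of the 8 genes, ITGB4 25.8% and ITGB5 10.6%.

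**Figure D1:**
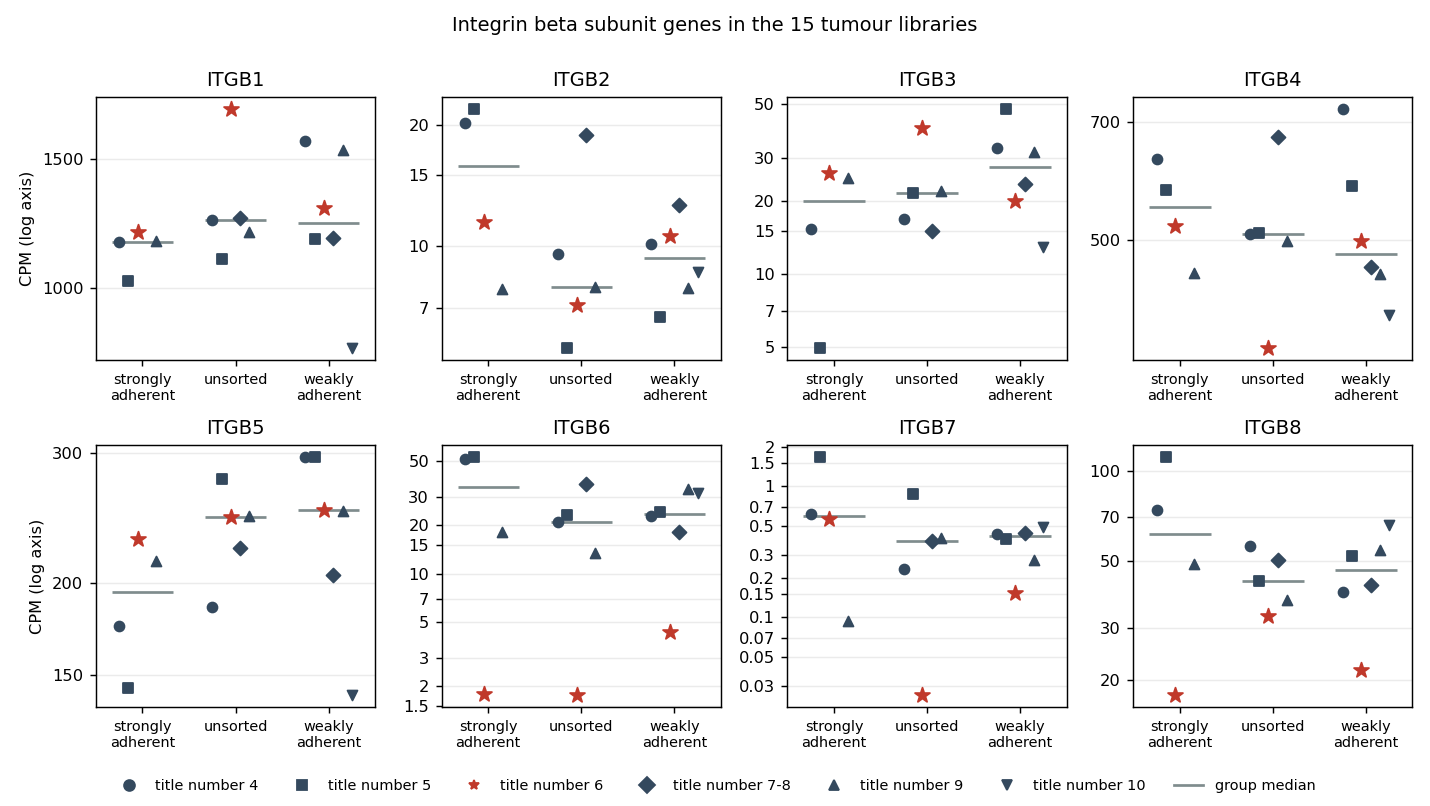
Level of each beta subunit gene in CPM (log axis, a separate range per gene) in each of the 15 libraries, by adhesion group, with the marker shape giving the title number, libraries titled number 6 in red and a line at each group's median. For ITGB6 the 3 red stars lie between 1.76 and 4.36 CPM, below every other library, while for most other genes the groups and numbers overlap.

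ITGB1 was even across the libraries. In tumours of strongly adherent cells it stood at 1155, 1023, 1194 and 1161 CPM in libraries 4, 5, 6 and 9. In unsorted libraries 4, 5, 6, 7-8 and 9 it stood at 1238, 1097, 1755, 1247 and 1193 CPM, and the 6 weakly adherent libraries had a lowest value of 829.3, a median of 1229 and a highest of 1588 CPM. Unsorted library 6 was the highest of all and weakly adherent library 10 the lowest, and the 3 groups overlapped. Its main partners were also abundant: ITGA3, a laminin receptor chain, stood at 1583 ± 204 CPM, ITGA2, a collagen receptor chain, at 384 ± 69.1 CPM and ITGA5, the fibronectin receptor chain, at 284 ± 153 CPM (SD, n = 15).

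ITGB4 was as even as ITGB1. It was counted at 630, 577, 520 and 455 CPM in strongly adherent libraries 4, 5, 6 and 9, and at 509, 510, 367, 671 and 499 CPM in unsorted libraries 4, 5, 6, 7-8 and 9. The weakly adherent libraries ran from 403 through a median of 481 to 727 CPM. Unsorted library 6 was the lowest and weakly adherent library 4 the highest, with full overlap of the groups. ITGA6, its only known alpha partner, stood at 683 ± 111 CPM (SD, n = 15).

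Among the genes whose products pair with ITGAV, ITGB5, a vitronectin receptor chain, was counted at 174, 144, 230 and 214 CPM in strongly adherent libraries 4, 5, 6 and 9. In unsorted libraries 4, 5, 6, 7-8 and 9 it reached 185, 277, 246, 223 and 246 CPM, and the weakly adherent libraries had a lowest value of 141, a median of 251 and a highest of 297 CPM. Strongly adherent libraries 4 and 5 and weakly adherent library 10 were the 3 lowest, and the groups overlapped. ITGB3, the other vitronectin receptor chain, stood at 15.2, 4.94, 26.0 and 24.8 CPM in strongly adherent libraries 4, 5, 6 and 9. It stood at 16.8, 21.5, 39.9, 14.99 and 21.9 CPM in unsorted libraries 4, 5, 6, 7-8 and 9, and at 12.9, 27.7 and 47.8 CPM as the lowest, median and highest weakly adherent value. Both extremes of ITGB3 came from title number 5, with the strongly adherent library lowest and the weakly adherent one highest.

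ITGB6, an epithelial integrin chain that activates latent TGF-beta, had the largest SD of log2 CPM over the 15 libraries, which rested on the libraries titled number 6. It was counted at 51.4, 53.5, 1.79 and 18.1 CPM in strongly adherent libraries 4, 5, 6 and 9 and at 20.99, 23.1, 1.76, 36.4 and 13.4 CPM in unsorted libraries 4, 5, 6, 7-8 and 9. The weakly adherent libraries 4, 5, 6, 7-8, 9 and 10 held 22.9, 24.1, 4.36, 18.2, 33.8 and 32.0 CPM. Library 6 was the lowest of its group in all 3 groups.

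ITGB8, the other chain known for activating latent TGF-beta, had the same 3 libraries at the bottom. It stood at 74.1, 111, 17.8 and 48.9 CPM in strongly adherent libraries 4, 5, 6 and 9 and at 56.2, 42.8, 32.8, 50.5 and 37.0 CPM in unsorted libraries 4, 5, 6, 7-8 and 9. The weakly adherent libraries 4, 5, 6, 7-8, 9 and 10 held 39.4, 52.0, 21.7, 41.5, 54.4 and 65.9 CPM. Strongly adherent library 5 was the highest. ITGAV itself, the shared alpha chain, varied less, at 144 ± 26.8 CPM (104 to 202, SD, n = 15).

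ITGB2, the beta chain of the leukocyte integrins, was low but counted in every library. It stood at 20.2, 21.9, 11.4 and 7.82 CPM in strongly adherent libraries 4, 5, 6 and 9 and at 9.57, 5.58, 7.12, 18.8 and 7.92 CPM in unsorted libraries 4, 5, 6, 7-8 and 9. The weakly adherent libraries ran from 6.66 through a median of 9.36 to 12.7 CPM. Strongly adherent libraries 4 and 5 and unsorted library 7-8 were the 3 highest. The genes of its alpha partners had almost no counts, with 0 to 3 counts per library for ITGAL and ITGAD, 0 to 7 for ITGAM and 0 to 5 for ITGAX.

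ITGB7, the beta chain of gut-homing lymphocyte integrins, had 1 to 80 counts per library. Its highest level was 1.68 CPM in strongly adherent library 5 and its lowest 0.0254 CPM, a single count, in unsorted library 6. Of its partners, ITGA4 stayed at or below 0.438 CPM, while ITGAE stood at 30.3 ± 6.73 CPM (SD, n = 15). Markers of leukocytes were uneven. CD53 had 0 to 2 counts per library and PTPRC, the pan-leukocyte gene, stood at 0.107 to 1.83 CPM, while LAPTM5, LCP1 and CORO1A averaged 66.7, 22.4 and 13.8 CPM. Of the myeloid list, TYROBP had no count in any library and CD68 averaged 103 CPM. Of the lymphocyte list CD2 and MS4A1 had no count in any library, while CD3D and CD79A passed the filter on low counts. The 7 lymphocyte genes summed to 0.401 to 4.14 CPM in strongly adherent, 0.127 to 2.33 CPM in unsorted and 0.412 to 2.21 CPM in weakly adherent libraries. Strongly adherent library 5, where ITGB7 was highest, also held the highest of these sums. The 5 leukocyte genes summed to 71.3 to 120 CPM in strongly adherent, 88.7 to 115 CPM in unsorted and 75.5 to 171 CPM in weakly adherent libraries, and the 7 myeloid genes to 71.9 to 183, 101 to 123 and 77.0 to 204 CPM. The reads were counted on human genes, and how many came from conserved genes of the mouse host was not tested.

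Weakly and strongly adherent origins were compared first, to ask whether tumours of cells selected for adhesion differ in these adhesion receptors. No beta subunit passed the threshold of 0.05 on the adjusted p of edgeR's quasi-likelihood test, and neither did any other gene in this fit (0.0% of 15190; 366 genes had an unadjusted p under 0.05 in edgeR and 402 in DESeq2, which also called 0). ITGB2 came nearest, with means of 9.41 ± 2.14 CPM (SD, n = 6) in weakly and 15.3 ± 6.78 CPM (SD, n = 4) in strongly adherent libraries. Its log2 fold change was -0.71 with a standard error of 0.329 (95% interval -1.40 to -0.01), with an unadjusted p of 0.0484 and an adjusted p of 1 by edgeR. The ITGB2 value was -0.48 without strongly adherent library 5, -0.85 without the libraries titled number 6 and -0.60 without both. ITGB5 averaged 240 ± 59.5 CPM (SD, n = 6) in weakly and 190 ± 38.8 CPM (SD, n = 4) in strongly adherent libraries and had a log2 fold change of 0.33 (-0.07 to 0.74).

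The intervals of the other genes show what the fit with adhesion group as its only term could and could not resolve. Spread between title numbers stayed in the error of that fit. ITGB1 and ITGB4 had log2 fold changes of 0.16 (-0.21 to 0.52) and -0.07 (-0.44 to 0.31), so differences of more than about that size lay outside their intervals. ITGB3 had a value of 0.67 (-0.28 to 1.62), which was 0.36 without strongly adherent library 5 and 0.91 without strongly adherent library 6. ITGB8 had a value of -0.46 (-1.29 to 0.37), which was -0.03 without library 5 of that group and -0.77 without its library 6. ITGB6, at -0.47 (-2.22 to 1.28), and ITGB7, at -1.02 (-2.46 to 0.42), were the least precise. Without strongly adherent library 5 they stood at -0.08 and -0.23, and without strongly adherent library 6 ITGB6 stood at -0.86. The muscle gene sum of strongly adherent library 5 was 1630 CPM, and its epithelial sum of 4698 CPM was the highest of the 15. The part of both sums in these values was not tested. Over the 8 genes, 3 values were positive and 5 negative with a median of -0.26, beside -0.02 over all genes tested.

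Tumours of unsorted cells served as the shared reference for both sorted origins, so the following pair of comparisons is not independent. Between weakly adherent and unsorted libraries no beta subunit and no other gene was called (0.0% of 15190; 81 genes had an unadjusted p under 0.05 in edgeR and 96 in DESeq2, which called 0). The log2 fold changes lay between -0.08 for ITGB7 and 0.29 for ITGB3. ITGB1 averaged 1264 ± 280 CPM (SD, n = 6) in weakly adherent and 1306 ± 258 CPM (SD, n = 5) in unsorted libraries, and ITGB4 averaged 521 ± 117 and 511 ± 108 CPM in the same libraries.

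Between strongly adherent and unsorted libraries the count was again 0 of 8 (0.0% of 15190; 572 genes had an unadjusted p under 0.05 in edgeR and 631 in DESeq2, which called 0). ITGB2 had a log2 fold change of 0.65 with an unadjusted p of 0.0794 and an adjusted p of 0.9748 by edgeR, and was 0.43 without strongly adherent library 5 and 1.02 without unsorted library 7-8. ITGB7 had the largest value, 0.94, which was 0.15 without strongly adherent library 5 and 1.51 without unsorted library 5. ITGB6 averaged 31.2 ± 25.4 CPM (SD, n = 4) in strongly adherent and 19.1 ± 12.8 CPM (SD, n = 5) in unsorted libraries and had a value of 0.71, and ITGB8 had one of 0.52. Without strongly adherent library 5 these were 0.31 and 0.10, and without strongly adherent library 6 they were 1.10 and 0.83. ITGB5 had a value of -0.31 and ITGB1 of -0.21. A test for any difference among the 3 groups also called none of the 8 and 0.0% of all genes (258 genes with an unadjusted p under 0.05 in edgeR, 342 in DESeq2, which called 0). In every comparison of adhesion groups, the genes with an unadjusted p under 0.05 made up less than a share of 0.05 of the 15190. The 0 calls do not show that the groups are alike.

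**Figure D2:**
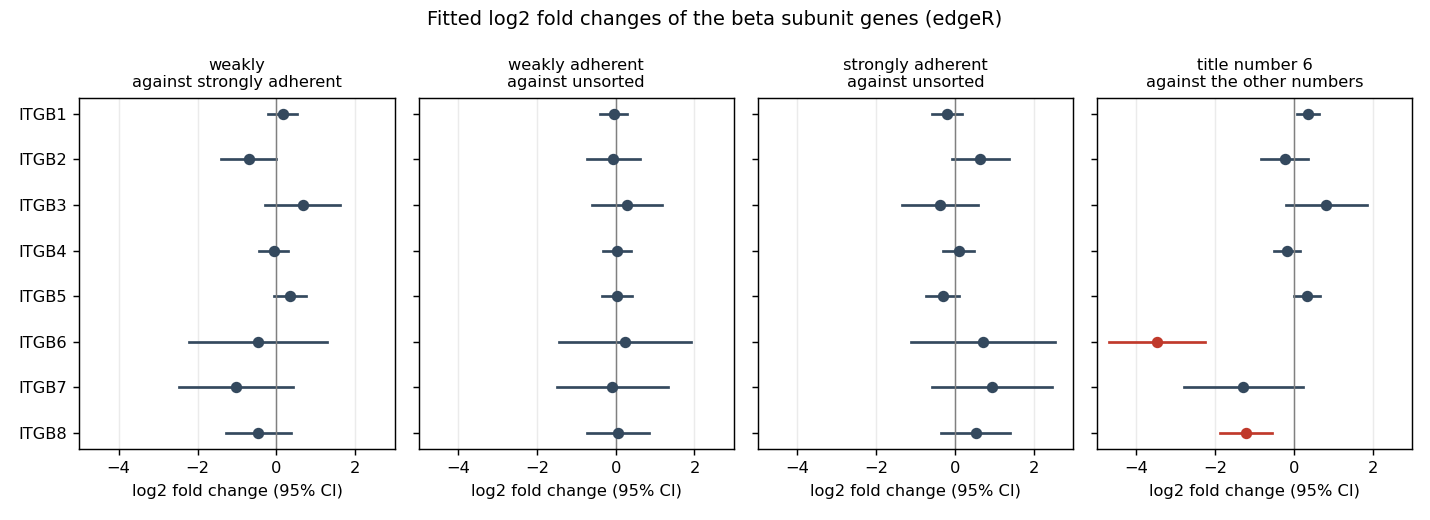
Log2 fold change of each beta subunit gene in the 3 comparisons of adhesion groups and in the comparison of title number 6 with the other numbers, with bars for the 95% interval and red for values with an adjusted p under 0.05. The adhesion values pass no threshold, and ITGB6 at -3.47 and ITGB8 at -1.23 are the values called in the comparison of title numbers.

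Libraries that share a title number were also set side by side. ITGB1 was higher in the weakly than in the strongly adherent library in 4 of 4 numbers, with log2 differences of 0.46, 0.19, 0.11 and 0.41 for numbers 4, 5, 6 and 9. ITGB5 behaved alike, with 0.76, 1.04, 0.13 and 0.23. Both genes were lower in the strongly adherent than in the unsorted library in 4 of 4 numbers, by differences of -0.56 to -0.04 for ITGB1 and of -0.94 to -0.09 for ITGB5. These differences share the strongly adherent libraries and are given as a description, since the labels do not say that a number pairs libraries. The share of all genes tested with 1 sign in 4 of 4 numbers was not computed. Such counts, also that of ITGB6 below, are therefore not read as particular to these genes.

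ITGB6 was higher in the strongly adherent than in the unsorted library in 4 of 4 numbers, with log2 differences of 1.29, 1.21, 0.03 and 0.43 for numbers 4, 5, 6 and 9. The 0.03 of number 6 rested on 67 counts in the strongly adherent and 69 in the unsorted library, so these 2 were about level. The ITGB6 difference between weakly and strongly adherent libraries changed sign, at -1.16 and -1.15 for numbers 4 and 5 and at 1.26 and 0.90 for numbers 6 and 9. ITGB8 split in the same way, with -0.91 and -1.10 for numbers 4 and 5 and 0.29 and 0.16 for numbers 6 and 9. The ITGB2 differences were large for numbers 4 and 5, at -0.998 and -1.71, and near 0 for numbers 6 and 9, at -0.12 and 0.01. ITGB4 moved little, from -0.06 to 0.21.

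**Figure D3:**
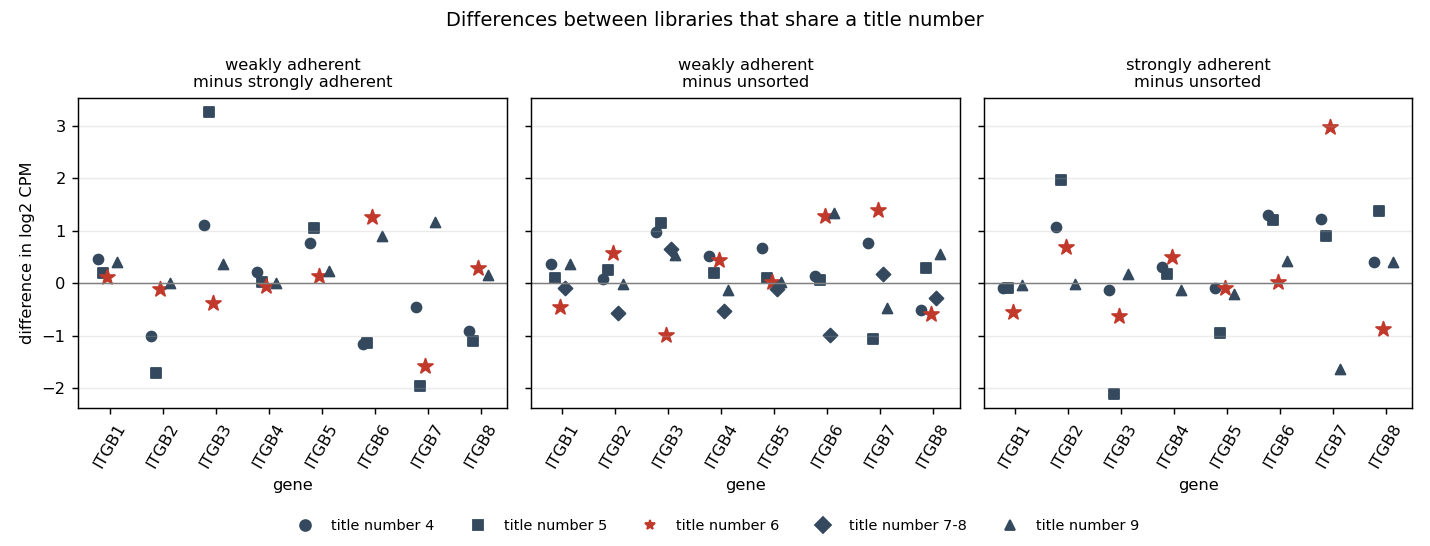
Difference in log2 CPM between libraries that share a title number, for each beta subunit gene, between weakly and strongly adherent, weakly adherent and unsorted, and strongly adherent and unsorted libraries, with title number 6 in red. ITGB1 and ITGB5 lie above 0 for all 4 numbers in the difference of weakly minus strongly adherent, with values of 0.11 to 0.46 and 0.13 to 1.04, while ITGB6 and ITGB8 lie on both sides of 0.

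ITGB6 and ITGB8 varied between title numbers more than most genes did. The share of the spread of log2 CPM that lay between title numbers was 86.8% for ITGB6 and 65.4% for ITGB8, beside a median of 51.1% over 13138 tested genes with a mean of 1 CPM or more. ITGB3 at 17.7% and ITGB2 at 30.7% lay below that median. The share between adhesion groups was 23.9% for ITGB2, 18.3% for ITGB5 and 18.0% for ITGB3, beside a median of 7.26%. With 6 numbers and 3 groups the numbers take a larger share by chance, so both shares are read only against those medians. The SD of log2 CPM over 15 libraries was 0.26 for ITGB1 and 0.27 for ITGB4, close to the gene median of 0.26, and 1.55 for ITGB6, which was 0.61 over the 12 libraries not titled 6.

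In the fit with adhesion group and title number, 1 of 8 beta subunits differed among title numbers, beside 7.9% of all genes (1200 of 15190). It was ITGB6, with an unadjusted p of 0.003 and an adjusted p of 0.0431 by edgeR. This call was lost in 10 of 15 fits that left out 1 library, with adjusted p values of 0.0183 to 0.143 over the 15 fits. ITGB8 had an adjusted p of 0.144 and ITGB1 of 0.185 by edgeR. DESeq2 called 22.1% of all genes (3350) and 3 of the 8, namely ITGB6, ITGB8 at an adjusted p of 0.0037 and ITGB1 at an adjusted p of 0.0274.

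The libraries titled number 6 were then compared with the mean of the other numbers, a contrast chosen because these libraries were known to stand apart. Its standard errors and p-values reflect the spread among libraries within a number, not the spread from number to number. The 3 libraries titled 6 may not be independent: their deviations from the group means correlated at 0.683 to 0.767. Of the 8 beta subunits, 2 fell, ITGB6 and ITGB8, and 0 rose, beside 27.9% of all genes called (16.4% lower and 11.6% higher). ITGB6 was 11.1-fold lower in that contrast, and averaged 2.64 ± 1.49 CPM (SD, n = 3) in title number 6 and 29.0 ± 12.9 CPM (SD, n = 12) elsewhere. Its log2 fold change was -3.47 with a standard error of 0.542 (95% interval -4.70 to -2.25) and an adjusted p of 0.00229 by edgeR. Leaving out 1 library at a time gave -4.13 to -3.10, with the call kept in each of the 15 fits.

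ITGB8 was 2.35-fold lower, and averaged 24.1 ± 7.76 CPM (SD, n = 3) in title number 6 and 56.2 ± 20.5 CPM (SD, n = 12) elsewhere. Its log2 fold change was -1.23 with a standard error of 0.299 (-1.89 to -0.57) and an adjusted p of 0.0132 by edgeR. Without strongly adherent library 6 it was -0.90 with an adjusted p of 0.0506 by edgeR, and the call was lost. For both genes the 3 libraries titled number 6 lay below all 12 others, as they did for 10.4% of all genes tested.

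The other beta subunits did not pass in this contrast. ITGB1 had a log2 fold change of 0.35 (0.07 to 0.64) and an adjusted p of 0.0636 by edgeR, and DESeq2, which called 33.2% of all genes, called it at 0.37 with an adjusted p of 0.0197. Without weakly adherent library 6, ITGB1 was at 0.50 with an adjusted p of 0.0266 and ITGB3 at 1.34 with an adjusted p of 0.0388 by edgeR. With all libraries ITGB3 had a value of 0.81 (-0.21 to 1.84), ITGB5 of 0.33 (-0.01 to 0.66) and ITGB4 of -0.17 (-0.50 to 0.15).

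In the same contrast, 8 of 8 epithelial marker genes fell, with a median of -4.34, beside 16.4% lower and 11.6% higher over all genes. CDH1 fell by 6.41 on the log2 scale. Of the other cell type lists, 3 of 5 tested fibroblast genes fell, 3 of 4 endothelial genes rose, 3 of 5 muscle genes rose, and of 4 leukocyte genes 1 rose and 3 fell. Of 4 tested myeloid genes 1 rose and 1 fell, of 2 lymphocyte genes 1 fell, and of 2 platelet genes 0 passed. Fibroblast genes summed to 199 to 375 CPM in title number 6 and 430 to 1344 CPM elsewhere, and endothelial genes to 22.3 to 26.1 CPM and 7.99 to 19.3 CPM. The part of these differences in the ITGB6 and ITGB8 values was not tested. In bulk tumour RNA, fewer cells of a type and less RNA per cell cannot be told apart.

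Across the 12 libraries not titled 6, some of the genes varied together and others in opposite directions, by correlation of log2 CPM. Of 28 pairs, 3 had a Pearson correlation with an adjusted p under 0.05 in a two-sided permutation test, and none did by Spearman's rho. The share of other gene pairs that would pass in these libraries was not computed, so the count is not read as particular to this family. ITGB3 and ITGB5 varied together, with r = 0.835 (permutation p = 0.00029, adjusted 0.00532) and rho = 0.804 (permutation p = 0.00255, adjusted 0.0714). ITGB6 and ITGB8 varied together, with r = 0.835 (permutation p = 0.00038, adjusted 0.00532) and rho = 0.762 (permutation p = 0.00563, adjusted 0.0788). ITGB5 and ITGB8 ran against each other, with r = -0.757 (permutation p = 0.00328, adjusted 0.0306) and rho = -0.636 (permutation p = 0.0297, adjusted 0.222).

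Leaving out the 2 libraries farthest from the median of the first gene gave r = 0.786, 0.661 and -0.578 for these 3 pairs, and leaving out strongly adherent library 5 gave 0.812, 0.790 and -0.674. Differences from the mean of each title number gave r = 0.884, 0.831 and -0.871 over 11 libraries. The 12 libraries share 5 title numbers and may not be independent, so the permutation p-values may be too small. ITGB3 and ITGB8 also ran against each other at r = -0.757 (permutation p = 0.00762, adjusted 0.0533), and without strongly adherent library 5 that value was -0.441.

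**Figure D4:**
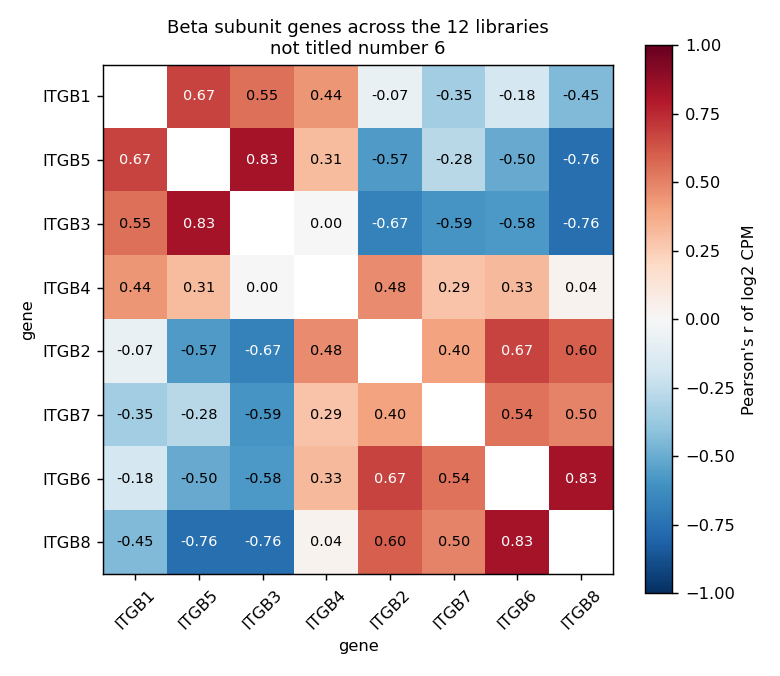
Pearson correlation of log2 CPM between the beta subunit genes over the 12 libraries not titled number 6, with red for positive and blue for negative values. ITGB3 with ITGB5 and ITGB6 with ITGB8 are the strongest positive pairs at 0.835 each, and ITGB8 is negative with ITGB3 and ITGB5 at -0.757.

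For each of the 7 genes with a mean of at least 1 CPM, the 3 genes most like it were found among 12283 candidates by Pearson correlation over the same 12 libraries, as a description. ITGB6 was most like ERBB3, a receptor tyrosine kinase gene (r = 0.959, rho = 0.986), CXADR, an epithelial junction gene (0.952 and 0.888), and FGFR3, a growth factor receptor gene (0.939 and 0.916). ITGB8 was most like SLC52A3, a riboflavin transporter gene (0.962 and 0.930), ZNF765 (0.953 and 0.867) and GRHL2, an epithelial transcription factor gene (0.952 and 0.916). Over all 15 libraries r ran from 0.884 to 0.981 for the 3 genes of ITGB6 and from 0.863 to 0.938 for those of ITGB8.

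Among the 3 genes most like ITGB3 were PCDHB6, a protocadherin gene (r = 0.958, rho = 0.944), and FAM214B (0.943 and 0.860). ITGB5 was most like HTR7, a serotonin receptor gene (0.982 and 0.951), FAM129B (0.955 and 0.916) and TAX1BP3 (0.954 and 0.909). Among those most like ITGB4 were APP, the amyloid precursor gene (0.963 and 0.930), and TPP1, a lysosomal peptidase gene (0.958 and 0.958). ITGB1 was most like HEG1 (0.933 and 0.825), ANO6 (0.926 and 0.706) and SERINC3 (0.917 and 0.664). ITGB2 was most like LCN2, the lipocalin 2 gene (0.929 and 0.888), IP6K3 (0.917 and 0.867) and TMEM40 (0.902 and 0.881), of which IP6K3 had a mean of 1.01 CPM. Over all 15 libraries r was 0.416, 0.620 and 0.463 for these 3 genes, 0.732 to 0.855 for those of ITGB1, 0.772 and 0.936 for those named for ITGB3, 0.750 and 0.956 for those named for ITGB4, and 0.870 to 0.915 for those of ITGB5.

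Genes that act with the beta subunits were counted from lists in the same fits. In the 3 comparisons of adhesion groups 0 members of any list were called. In the comparison of title number 6 with the other numbers, 1 of 12 tested alpha subunits rose and 5 fell, with a median of -0.01, beside 11.6% higher, 16.4% lower and a median of 0.01 over all genes tested. ITGA5, the fibronectin receptor chain, rose at a log2 fold change of 1.30 (adjusted p = 0.0202 by edgeR). ITGAV, the partner of ITGB6 and ITGB8, fell by 0.40 on the log2 scale (adjusted p = 0.0439 by edgeR), from 151 ± 24.3 CPM (SD, n = 12) to 115 ± 13.0 CPM (SD, n = 3). The other 4 that fell, ITGA4, ITGA7, ITGA9 and ITGA11, had a mean of at most 1.52 CPM in either set of libraries. ITGA6, the partner of ITGB4, had a value of 0.04 and did not pass.

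Of 19 tested genes that activate or inhibit integrins, 6 rose in title number 6 and 0 fell, with a median of 0.25, beside 11.6% higher and 16.4% lower over all genes. They were TLN1, the talin gene (0.45), the kindlin genes FERMT2 (0.71) and FERMT3 (1.18), APBB1IP, which recruits talin (1.62), TNS1, a tensin gene (2.77), and ITGB1BP1, whose product competes with talin for the ITGB1 tail (0.38). Of 10 hemidesmosome genes, 5 fell and 0 rose, with a median of -0.41, against the same shares over all genes. Among those that fell, the log2 fold changes were -3.21 for LAMA3, a laminin chain gene, -2.18 for COL17A1, a hemidesmosome collagen gene, and -1.95 and -5.97 for the basal keratin genes KRT14 and KRT5. ITGB4 and ITGA6 were thus not among the genes of that structure that passed.

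Of 8 tested genes for TGF-beta and its latent complexes, 2 rose and 3 fell in title number 6, with a median of 0.26, beside 11.6% higher and 16.4% lower over all genes. LTBP1, a latent TGF-beta binding protein gene, rose at 1.92 from 254 ± 107 CPM (SD, n = 12) to 806 ± 159 CPM (SD, n = 3), and LTBP2 rose at 0.39. The ligand genes TGFB2 and TGFB3 and the binding protein gene LTBP3 fell, with log2 fold changes of -1.82, -0.70 and -0.90. Of 13 tested ligand genes, 1 rose and 5 fell, with a median of -0.66, against the same shares over all genes. ICAM3, a ligand of ITGB2 integrins, rose at 0.73, while THBS1, TNC, ADAM9, VCAM1 and CDH1 fell, with log2 fold changes of -0.93, -1.18, -0.66, -4.54 and -6.41.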

How the data were processed

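Per the labels' protocols, a stranded TruSeq kit was used and reads were single-end, 50 bp long. The submitters' processing notes name STAR, HTSeq, cutadapt, FastQC and DESeq2 and build hg19, without versions, and whether counting used strand is not stated there. Symbols and build are human, although the organism label is mouse. The authors deposited raw counts per gene and a table of log2 normalized values, which served only the limma-trend alternatives.

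Counts were fitted with edgeR 4.0.16 in R 4.3.3 (robust quasi-likelihood fit of all 15 libraries with TMM factors, genes filtered with filterByExpr, adhesion group as the only term). The filter left 15190 genes with 99.98% of counts. Title numbers were tested with adhesion group in the model. Tests were two-sided, adjusted by Benjamini-Hochberg over all 15190 genes, with a threshold of 0.05. Standard errors were derived from the F statistic, and the 95% intervals are approximate. CPM is TMM-scaled, and log2 CPM has a prior count of 2. Correlations used 100000 resamples with SciPy 1.17.1. Coding lengths came from GENCODE mouse release 21.

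No libraries agreed within sampling noise. The members, lists, alternatives and the contrast of title number 6 were chosen with earlier results of these data known. All 8 genes were named whatever their values, with textbook partners, list members past the threshold and the 3 genes most like each by correlation; a few genes this rule picks are not reported here. Alternatives were DESeq2 1.42.0, DESeq2 size factors or upper-quartile scaling, no filter or 1 CPM in 4 libraries, limma 3.58.1 (voom, or trend with pseudocount 1 or 8), the title number as a block, no adhesion term, and libraries left out. The fits were tested on simulated data.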

Additional observations from a re-analysis of the deposited data

Results flagged for a closer look

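In 24 sets of values (8 genes in 3 adhesion groups), 2 held a library whose gap to its nearest neighbour was large against the range of its group, and chance alone marks about 1 in 20 such sets. Both came from unsorted library 6. ITGB1 was at 1755 CPM there, against 1247 CPM in the next highest of the 5 unsorted libraries. ITGB3 was at 39.9 CPM there, against 21.9 CPM in the next highest. Without this library the log2 fold change of title number 6 against the other numbers was 0.19 for ITGB1 and 0.48 for ITGB3, beside 0.35 and 0.81 with it. The same library held a muscle gene sum of 529 CPM, and the part of that in either value was not tested.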

How the results depend on the processing

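No beta subunit was called between adhesion groups under any alternative run. Some values changed sign. For weakly adherent against unsorted libraries, ITGB2 stood at 0.056, ITGB5 at -0.002 and ITGB7 at 0.419 with limma voom, at 0.040, -0.008 and 0.331 with limma-trend at a pseudocount of 1, and at 0.038, -0.008 and 0.081 at a pseudocount of 8. For weakly against strongly adherent libraries, ITGB6 stood at 0.102, 0.133 and 0.110 in those fits. Without title number 6, ITGB1 was 0.082 and ITGB4 -0.052 against unsorted. With strongly adherent library 5 left out too, a setting chosen after seeing the data, these were again 0.082 and -0.052, and ITGB7 was 0.170 (weakly against strongly), ITGB3 0.081, ITGB4 -0.019 and ITGB7 -0.406 (strongly against unsorted). Among title numbers, the call of ITGB6 was lost with no filter (0 called), and DESeq2 called 3350 genes and 3 of the 8. The cause was not tested. With all 15 libraries, the 3 genes most like each member kept 0 of 3 for ITGB1, ITGB2, ITGB6 and ITGB8, 1 for ITGB4 and ITGB5 and 2 for ITGB3. Leaving out 1 library gave, for weakly adherent against unsorted, -0.123 to 0.081 for ITGB1, -0.206 to 0.319 for ITGB2, -0.090 to 0.146 for ITGB4, -0.046 to 0.143 for ITGB5, -0.057 to 0.609 for ITGB6, -0.392 to 0.493 for ITGB7 and -0.069 to 0.208 for ITGB8. ITGB4 ran from -0.185 to 0.011 for weakly against strongly adherent and from -0.010 to 0.212 for strongly adherent against unsorted. Genes called ran from 386 (without strongly adherent library 6) to 1621 among title numbers, with 0 to 1 of the 8, and from 1981 (without strongly adherent library 6) to 4231 for title number 6, with 1 to 4 of the 8. Among title numbers, ITGB2 reached an adjusted p of 0.0425 without strongly adherent library 5.

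Of 13 pairs of libraries that share a title number, 11 had a correlation of deviations above 0.1 (0.016 to 0.767, beside a median of -0.026 for other pairs), and 9 of 14 libraries correlated best with their own number. This is a hint that numbers mark a shared unit, but the labels do not say so and not every pair exceeded 0.1, so the design was not treated as paired. With the replicate block, edgeR called 0 genes in each adhesion comparison, and DESeq2 called 30 between weakly and strongly adherent, 23 between strongly adherent and unsorted and 32 for any difference, none a beta subunit. Against unsorted, the block gave 0.054 for ITGB1, 0.061 for ITGB2, 0.035 for ITGB7 and -0.132 for ITGB8 (0.050, 0.059, 0.063 and -0.136 with DESeq2), and 0.185 for ITGB1 without title number 6. The few counts of ITGB7 limit its precision.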
